A study of Mus musculus with 3 samples.

Results

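Lrrc10 and 9 array gene names around it on mouse chromosome 10 were followed in RNA from adult hearts. They are the targeted gene, its closest neighbours Best3, Cct2 and Frs2, and Mdm2, Cpm, E030045M14Rik, Phlda1, Slc16a7 and Ppm1h, all within 10 Mb of Lrrc10. Members were taken as every non-control probe carrying one of these names, which gave 17 of the 41174 gene probes on the array and 26 spots per array. The genes beyond the closest neighbours were selected on their ratio between the 2 channels of these same arrays, so their ratios are given below as a description. No p-value is given for them as a test, and the array p deposited for each spot enters only as part of a selection rule. In the current reference annotation E030045M14Rik is a synonym of Cpm, so the 10 names stand for 9 genes.

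Each of 3 two-colour Agilent whole mouse genome arrays (replicates 1 to 3) carried heart RNA of mice aged 2 months on the C57/BL6 strain. Cy5 is labelled Lrrc10-/-, hearts of mice lacking both copies of the gene in every cell, and Cy3 is labelled WT, hearts of Lrrc10+/+ mice, with RNA of 2 hearts pooled. The knockout line had been backcrossed to that strain and, per the methods, littermates were compared. No array had the dyes swapped, so a preference of a probe for one dye cannot be told apart from a difference between the hearts. The methods describe the arrays as independent biological replicates, while the labels call the WT RNA a reference pool. If a single WT pool served every array, the spread between WT hearts is missing from the values.

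All 3 arrays lay on one slide with one scan, and 29576 probes reached a mean signal (geometric, both channels, all arrays) of at least 20 and were tested. Between 28942 and 30810 of the 43379 gene spots were well above background in a channel of an array. The log2 ratios of all tested probes were weakly related between arrays, with Pearson's r of 0.10, -0.04 and -0.18 for the 3 pairs. Each of the 12 cardiomyocyte markers looked up (among them Myh6, Tnnt2 and Ryr2) was tested, and the summed signal of the list ran from 1272680 to 1687180 in Cy5 and from 1344130 to 2089370 in Cy3, saturated spots included.

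LRRC10 is a small leucine-rich repeat protein made by cardiomyocytes, where it lies near Z-discs and binds actin and alpha-actinin. A gene disrupted in embryonic stem cells is inherited together with the chromosome on either side of it. Repeated crossing to another strain replaces most of the genome but tends to leave a stretch of the founder's chromosome around the selected locus. Genes next to a targeted locus are therefore usually looked at beside the targeted gene itself.

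The targeted gene showed the largest ratio on the arrays, and its direction goes against the labels. The Lrrc10 probe had processed signals of 14283, 20828 and 17703 in Cy5, the channel labelled Lrrc10-/-, on replicates 1, 2 and 3. In Cy3, labelled WT, the signals were 476, 443 and 352. Every Cy5 value lay far above every Cy3 value, and the probe was well above background in both channels on each array. The log2 ratios of Cy5 over Cy3 were 4.91, 5.56 and 5.65, with a mean of 5.37 ± 0.41 (SD, n = 3), or 41.4-fold. This was the highest mean ratio among the 29576 tested probes. Before any background or dye correction the mean signals were already 5310, 6082 and 7697 in Cy5 against 167, 157 and 169 in Cy3. The local background there was 50, 47 and 43 in Cy5 and 37, 35 and 36 in Cy3. The probe checks the labels only if its target lies in the deleted part of the gene, and the extent of the deletion is not given in the sources used here. Nppa, the natriuretic peptide that rises in strained ventricles, was brighter in Cy3 on each array, at a mean log2 ratio of -0.78 ± 0.14 (SD, n = 3). By the labels this sign also opposes the one in the study's account of adult hearts. Values below are therefore given by dye, and exchanging the labels would turn every sign.

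The first 30 of the 60 bases of the Lrrc10 probe are shown because the largest difference rests on this 1 probe.
Lrrc10 probe: actgtcactcctgtgccagaagcagttcct

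The region around the start of Lrrc10 is shown because the gene is known for its restriction to heart muscle. The window is that of RefSeq, build GRCm38.p6, plus strand, chr10:117045091-117045390, with 250 bases before and 50 after the start. A common form of the motif bound by GATA factors is spelled AGATAA. Factors of the NKX2-5 type are known to bind sites close to TNAAGTG. The core of a TATA box was searched as TATAAA. All were searched on both strands, and capitals mark the matches.
Lrrc10 promoter: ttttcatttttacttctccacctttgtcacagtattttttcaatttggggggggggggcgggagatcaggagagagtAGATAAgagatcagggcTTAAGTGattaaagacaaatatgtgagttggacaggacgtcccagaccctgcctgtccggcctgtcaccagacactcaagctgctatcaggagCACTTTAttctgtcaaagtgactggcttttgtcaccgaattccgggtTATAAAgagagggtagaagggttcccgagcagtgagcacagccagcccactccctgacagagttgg
AGATAA occurred 1 time, and 11.2% of the 32851 mouse windows of this length held it. TNAAGTG occurred 1 time on each strand, against 11.5% of windows with at least 1 match, and TATAAA occurred 1 time, against 13.6%. The motifs do not overlap in this window, and no CArG box, the motif of serum response factor, was found, against 1.63% of windows. Windows of Cct2 (2 of them), Frs2, Cpm, Mdm2 and Ppm1h were also held, and of the 4 motifs only TNAAGTG was found there, in 1 Cct2 window. These are matches of letters and not measured sites.

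**Figure D1:**
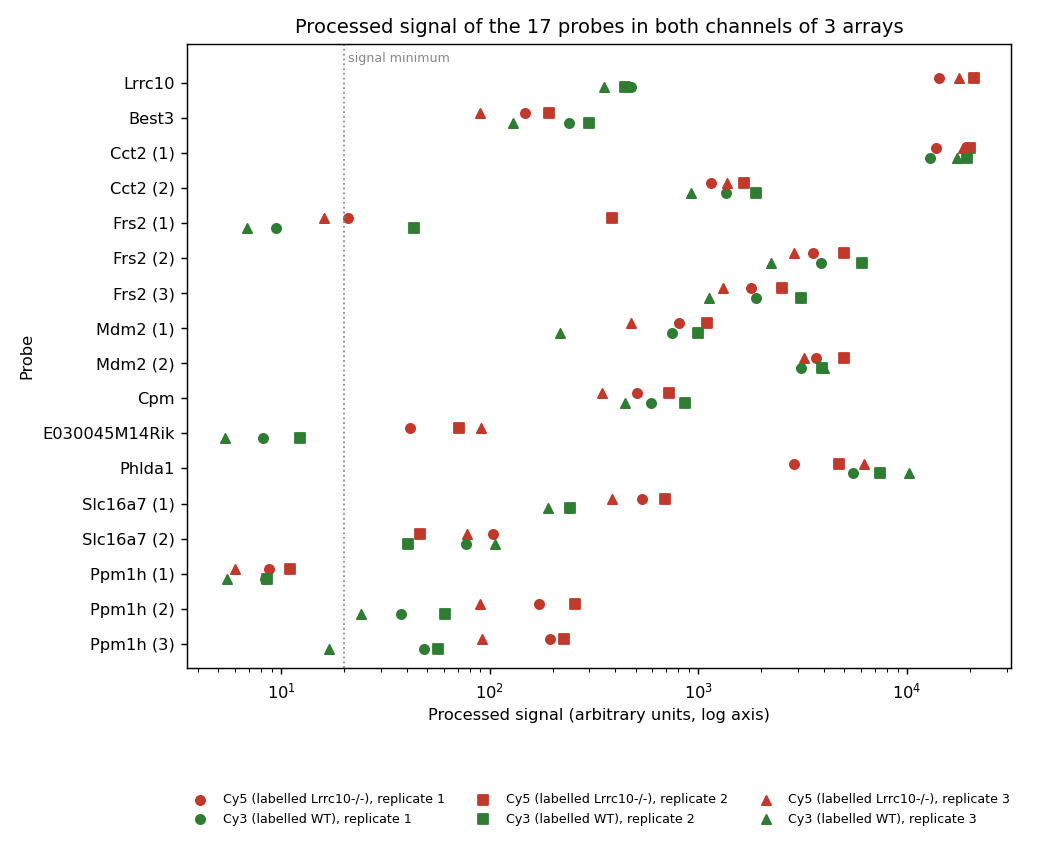
Processed signal (arbitrary units, log axis) of the 17 probes on replicates 1 to 3, Cy5 in red and Cy3 in green, where numbers in brackets tell probes of a gene apart. The Lrrc10 points split into Cy5 at 14283 and above and Cy3 at 476 and below, while the Cct2, Mdm2 and brighter Frs2 probes overlap between channels.

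Of the 16 member probes that reached the signal minimum, 5 were consistent in Cy5, meaning at least 1.2-fold brighter with an array p under 0.05 on all 3 arrays. They belonged to Lrrc10, E030045M14Rik, Slc16a7 and Ppm1h, and 0.406% of all tested probes were called this way. In Cy3 2 were consistent, those of Best3 and Phlda1, against 0.511% of all tested probes. The remaining 9 were neither. With limma across all probes at an adjusted p under 0.05, Lrrc10 was the 1 member called in Cy5 (0.00676% of all tested probes) and no member was called in Cy3 (0%). Without replicate 2, limma called 0 probes, Lrrc10 included. The choice of the members used this contrast, so nothing is read from these counts. The signals of all 3 arrays did not overlap between channels for 5 member probes, each higher in Cy5, where 1.23% of all tested probes behaved so in Cy5 and 1.64% in Cy3. No spot of a member probe was saturated or an outlier.

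**Figure D2:**
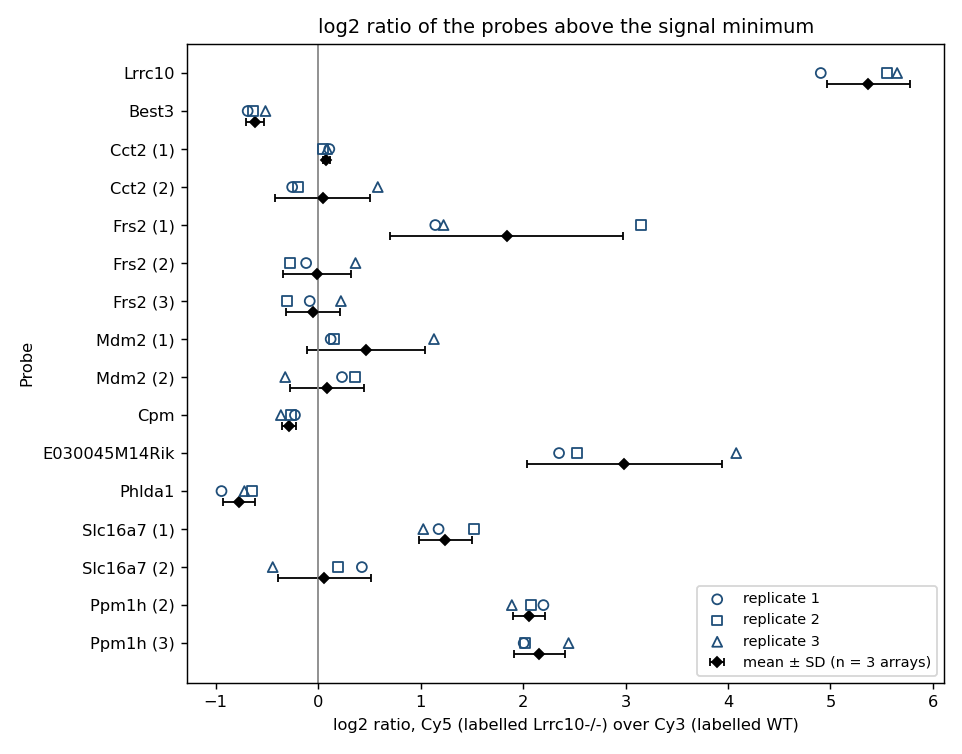
log2 of the Cy5 signal divided by the Cy3 signal for the 16 probes above the signal minimum, with open symbols for the arrays and black diamonds for mean ± SD (n = 3). Lrrc10 stands at 5.37, the 2 Ppm1h probes at 2.06 and 2.16, and the probes of Cct2 near 0.

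The immediate neighbours of Lrrc10 showed no common direction. Best3, a member of the bestrophin family of chloride channels, is the next protein-coding gene on one side, and Cct2 followed by Frs2 lie on the other. The Best3 probe had signals of 148, 193 and 90.0 in Cy5 and of 238, 300.0 and 129 in Cy3. It was dimmer in Cy5 on every array, although replicate 3 was low in both channels and the 2 sets of signals overlapped. The log2 ratios of -0.69, -0.64 and -0.51 gave a mean of -0.61 ± 0.09 (SD, n = 3), a level 1.53-fold higher in Cy3. Before dye normalization the mean Best3 signals were nearly equal, at 133, 136 and 101 in Cy5 and 130.4, 143 and 102 in Cy3, so the size of the ratio depends on how the channels are scaled. Background-subtracted signals centred on each array's median gave a mean of -0.59. With normexp background correction it was -0.24 after loess and -0.13 after centring on the median. The array's source for this probe is a cDNA clone and not a Best3 reference transcript.

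Cct2 encodes the beta subunit of the CCT chaperonin, the ring that folds new actin and tubulin. Its brighter probe had signals of 13833, 20080 and 18527 in Cy5 and 12831, 19445 and 17441 in Cy3. The channels were level on each array, with a mean log2 ratio of 0.08 ± 0.03 (SD, n = 3), although it was 0.63 with normexp and median centring, where the median of all probes was itself at 0.16. The dimmer Cct2 probe had ratios of -0.25, -0.20 and 0.58, and its mean of 0.04 ± 0.47 was smaller than the spread between arrays. Both probes come from the same reference transcript, and their 60 bases show that they do not sample the same stretch.
Cct2 (1): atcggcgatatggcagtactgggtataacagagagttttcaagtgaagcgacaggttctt
Cct2 (2): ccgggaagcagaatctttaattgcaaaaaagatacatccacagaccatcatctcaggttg
The GC content of the pair was 45.0% and 41.7%, against a median of 40.0% over all gene probes.

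Frs2 encodes the docking protein that couples fibroblast growth factor receptors to the Ras pathway. Its 3 probes gave different pictures. Frs2 (2) had ratios of -0.12, -0.28 and 0.36 and Frs2 (3) of -0.08, -0.30 and 0.22, with means of -0.01 ± 0.33 and -0.06 ± 0.26 (SD, n = 3). On both of them replicate 3 was the only array brighter in Cy5. Frs2 (1) was dim, with 20.9, 384 and 16.0 in Cy5 and 9.46, 43.2 and 6.87 in Cy3. It was well above background on replicate 2 alone, in both channels, and reached the signal minimum through that array. The local Cy5 background of this probe was 92 there, against 46.5 and 46 on replicates 1 and 3. The ratios of Frs2 (1), 1.14, 3.15 and 1.22, averaged 1.84 ± 1.14, and with normexp the mean was 0.29 after loess. The start of each probe is given to tell them apart.
Frs2 (1): tcaatttacaacacaatgtttgtgtatcgt
Frs2 (2): gcaggttaatcttgggttggcaaacgtaac
Frs2 (3): gaaagacgtgatactgtactatgcataaat

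Cpm and Mdm2 lie a few genes further on the side of Cct2. Cpm encodes carboxypeptidase M, a membrane enzyme that trims basic residues from the end of peptides. The Cpm probe had signals of 505, 723 and 346 in Cy5 and 591, 866 and 446 in Cy3. Each array was slightly dimmer in Cy5, at ratios of -0.23, -0.26 and -0.36 and a mean of -0.28 ± 0.07 (SD, n = 3). Background-subtracted signals centred on each array's median gave -0.59, and normexp with median centring gave -0.12. The Cpm probe was not among the consistent probes defined above.

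The probe named E030045M14Rik, designed on a cDNA clone now placed under Cpm, went the other way. Its Cy5 signals were 41.5, 71.0 and 90.4, and its Cy3 signals were 8.13, 12.3 and 5.35. The channels did not overlap, but Cy3 was not well above background on any array, so only a bound can be given. Cy5 was at least 2.44-fold brighter than Cy3, from the lowest signals well above background on each array, with measured normalized log2 means of 6.01 and 3.02. The deposited ratios were 2.35, 2.53 and 4.08, and they rest on that background level. The probe passed the signal minimum only through Cy5, so it had to differ. The beginnings of the 2 probes assigned to Cpm are shown because their ratios have opposite signs.
Cpm: aacaggaaataaatggatggggaagtgtct
E030045M14Rik: acttaggttatatggctagaagaaaataaa
The clone probe had 26.7% GC, the lowest of the members, and the Cpm probe 48.3%, the highest.

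Mdm2 encodes the ubiquitin ligase that keeps p53 low, and replicate 3 stood apart from the others. Mdm2 (1) is printed 10 times on each array. Its signals were 810, 1099 and 474 in Cy5 and 745, 990 and 217 in Cy3. The ratios were 0.12 and 0.15 on replicates 1 and 2 and 1.13 on replicate 3, and the mean was 0.47 ± 0.57 (SD, n = 3). Without replicate 3 it was 0.14. The 10 spots of one array had an SD of 0.09, 0.07 and 0.09, so the array that stood apart did so on every spot, from 1.03 to 1.28. Mdm2 (2) had ratios of 0.23, 0.36 and -0.32 and thus the opposite sign on replicate 3. Its mean was 0.09 ± 0.36 (SD, n = 3) and became -0.04 without replicate 2. Over the 245 probes printed 10 times, the median SD was 0.09 between spots and 0.34 between arrays, and 58 had a larger SD between arrays than Mdm2 (1). The repeated probe is shown whole and the other in part.
Mdm2 (1): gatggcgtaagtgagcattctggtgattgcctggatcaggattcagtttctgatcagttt
Mdm2 (2): cattcagaaagactgaatcagaacatggat

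**Figure D3:**
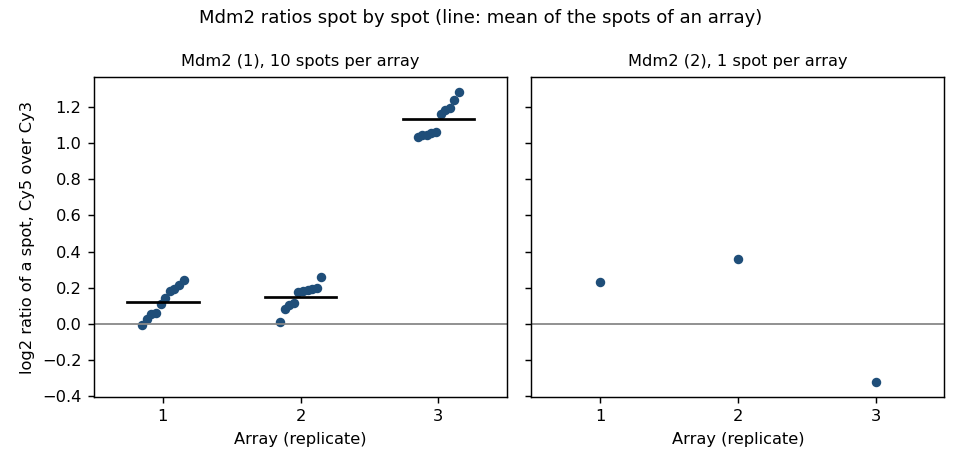
log2 ratio (Cy5 over Cy3) of each spot of the 2 Mdm2 probes on replicates 1 to 3, with a line at the mean of 10 spots. For Mdm2 (1) the spots of replicate 3 lie between 1.03 and 1.28, apart from those of the other arrays, and for Mdm2 (2) the single spot of replicate 3 lies at -0.32.

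The more distant members held the remaining consistent probes. Phlda1 lies 27 protein-coding genes away on the Best3 side and encodes a pleckstrin homology-like protein induced by growth factors and stress. Its signals were 2875, 4715 and 6211 in Cy5 and 5530, 7379 and 10234 in Cy3. Every array was dimmer in Cy5, while the arrays themselves differed so that the signals overlapped. The ratios of -0.94, -0.65 and -0.72 gave a mean of -0.77 ± 0.15 (SD, n = 3), or 1.71-fold in favour of Cy3. It was -0.26 with normexp and median centring. Before correction the mean signals were 1830, 1983 and 3806 in Cy5 and 1942, 2556 and 4656 in Cy3, a smaller difference in the same direction.

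Ppm1h, a PP2C type protein phosphatase, lies 38 protein-coding genes away on the other side, and its 2 measurable probes gave like values. Ppm1h (2) had signals of 172, 257 and 89.4 in Cy5 and 37.6, 60.8 and 24.1 in Cy3. All Cy5 values exceeded all Cy3 values, at ratios of 2.20, 2.08 and 1.89 and a mean of 2.06 ± 0.16 (SD, n = 3), or 4.16-fold. Ppm1h (3) had 193, 228 and 91.7 in Cy5 and 48.1, 56.2 and 16.8 in Cy3, the last not well above background. Its mean was 2.16 ± 0.25 (SD, n = 3), so the probes differed by less than the spread between arrays. With normexp, which adds an offset of 50 to both channels, and loess the means were 0.41 and 0.53. Ppm1h (1) was not well above background in either channel on any array and has no ratio. The measured pair is shown because separate stretches of the same transcript gave the same direction on every array.
Ppm1h (2): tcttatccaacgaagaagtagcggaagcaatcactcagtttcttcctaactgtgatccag
Ppm1h (3): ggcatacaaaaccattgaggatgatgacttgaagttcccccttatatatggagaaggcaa
Ppm1h (1), in part: aaggtgaaccaagatacagatgacaaagaa

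Slc16a7, which encodes the monocarboxylate transporter MCT2 for pyruvate and lactate, lies 42 protein-coding genes from Lrrc10, also past Cct2. Slc16a7 (1) had signals of 538, 693 and 385 in Cy5 and 238, 241 and 189 in Cy3. The channels did not overlap, and the ratios of 1.18, 1.52 and 1.03 averaged 1.24 ± 0.26 (SD, n = 3), or 2.36-fold. It was 0.59 with normexp and loess. Slc16a7 (2), designed on a cDNA clone, had ratios of 0.43, 0.20 and -0.44 and a mean of 0.06 ± 0.45, so its arrays disagreed in sign. The 2 probes begin as follows, where the first came from the reference transcript.
Slc16a7 (1): tgctcatctgcgcacctgagttgtgatgaa
Slc16a7 (2): gctcattttccaaacctaaagtgtctagaa

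Among the genes with more than 1 tested probe, Ppm1h alone had probes consistent in the same direction. No probe of Cct2, Frs2 or Mdm2 was consistent, and for Slc16a7 and the 2 names of Cpm 1 probe was consistent and the other was not. The consistent probe nearest the threshold was Best3, with an array p of 0.020 on replicate 3. Just outside it was a probe of Tbc1d15, a GTPase-activating protein of the Rab family, with ratios of 0.63, 0.47 and 0.40 and an array p of 0.054 on replicate 3.

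The chromosome around Lrrc10 was then taken as a whole. Within 10 Mb, 146 probes of 75 genes were tested, of which 5 (3.42%) were consistent in Cy5 and 2 (1.37%) in Cy3. All 7 were the member probes named above, which the choice of members fixes. On the rest of chromosome 10, 9 of 1059 probes (0.850%) were consistent in Cy5 and 5 (0.472%) in Cy3. Among the 130 probes of the 66 other genes within 10 Mb no probe was consistent, and limma called 0 of them in either channel. At an unadjusted p under 0.05, limma gave 1 of these in Cy5 and 2 in Cy3, beside 1.54% and 1.52% of all tested probes. Genes of this window that differed between the channels had been made members beforehand. Nothing is therefore read from the counts of the other genes.

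Those other genes were slightly brighter in Cy5 in the middle of their distribution. Their median log2 ratio was 0.08, 0.14 and 0.16 on replicates 1, 2 and 3 and 0.14 for the means, beside 0.00 for all tested probes. On all 3 arrays 27 probes (20.8%) were brighter in Cy5, beside 10.0% of all tested probes, and 7 (5.38%) in Cy3, beside 11.0%. The median was 0.07 with 1 probe per gene, the brightest, and 0.04 with normexp and loess. Their means ran from -1.07 to 0.88. Within 1 Mb the median of the other genes was -0.02, where Yeats4, the gene after Frs2, stood at 0.22 ± 0.34 (SD, n = 3). Rab3ip, on the far side of Best3, was at -0.06 ± 0.20 and -0.04 ± 0.17 on its 2 probes. Kcnmb4, a potassium channel subunit further on that side, had ratios of -0.37, -1.33 and -1.28 and a mean of -0.99 ± 0.54, larger than that of Best3, and was not consistent because of replicate 1.

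**Figure D4:**
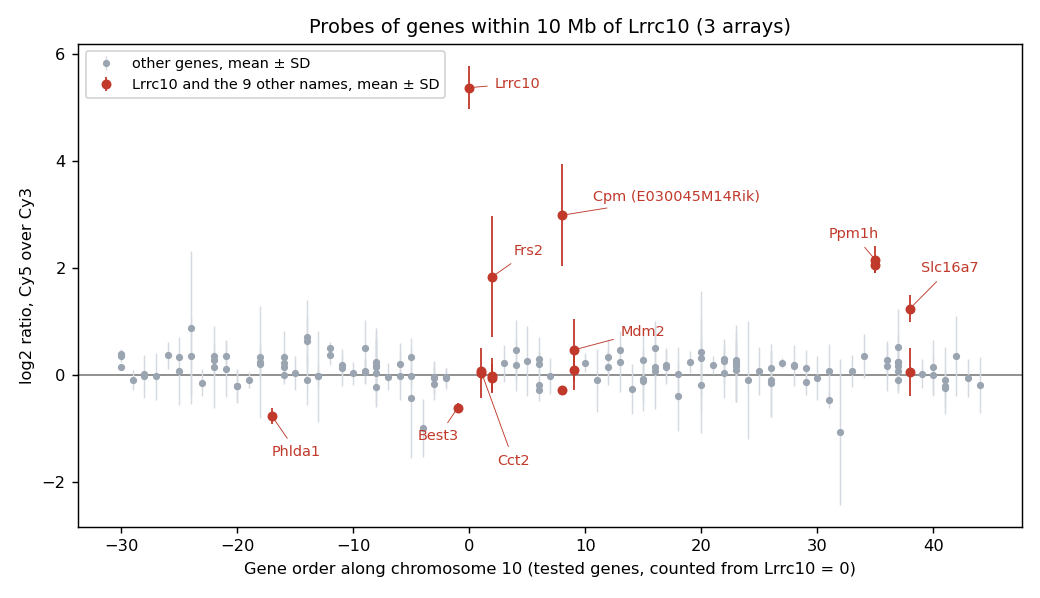
Mean log2 ratio (Cy5 over Cy3, bars SD, n = 3) of the 146 tested probes of genes within 10 Mb of Lrrc10, ordered by gene along chromosome 10, with Lrrc10 and the other chosen names in red. Lrrc10 stands at 5.37 and the nearest probes on either side, Best3 at -0.61 and Cct2 at 0.08 and 0.04, are far below it.

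The families of the neighbours were read with the brightest probe of each gene. Over the 20186 genes tested, 0.436% were consistent in Cy5 and 0.619% in Cy3, and the median log2 ratio was -0.01. Limma called 0.00991% of them in Cy5 and 0% in Cy3 after adjustment, and 1.55% and 1.79% at an unadjusted p under 0.05. The 9 CCT chaperonin subunits, which work as one complex with Cct2, ran from -0.16 ± 0.49 for Cct8 to 0.10 ± 0.07 for Cct6b (SD, n = 3) with none consistent. All 6 genes of actins and alpha-actinin listed as partners of LRRC10 were measured, and none was consistent. Their means ran from -0.32 ± 0.83 for Actn2, low on replicate 2 alone, to 0.16 ± 0.07 for Actg1 (SD, n = 3). Of 25 genes of FRS2 and fibroblast growth factor receptor signalling 0 were consistent, with a median of 0.04. Limma called 0 genes in each of these lists in either channel, and at an unadjusted p under 0.05 it gave 0 as well.

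In the list of p53, MDM2 and their targets, 1 of 26 genes was consistent in Cy5 and 1 in Cy3, around a median of -0.08. The gene in Cy5 was Ccng1, the p53-induced cyclin G1, at 0.71 ± 0.29 (SD, n = 3). The gene in Cy3 was Cdkn1a, the p53-induced cell cycle inhibitor p21, at -0.82 ± 0.25. These 2 targets thus had opposite signs, and Trp53 itself stood at -0.12 ± 0.42.

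In 4 further families the member was the only consistent gene. For Phlda1, Slc16a7 and Ppm1h this restates how they were chosen, and nothing is read from it. Among 16 chloride channel genes it was Best3, with Best1 at -0.20 ± 0.47 and Best2 at 0.04 ± 0.21. Among 14 monocarboxylate transporters it was Slc16a7, around a median of -0.08, and among 14 PP2C phosphatases it was Ppm1h, where the next highest, Pdp1, stood at 0.33 ± 0.23. In the PHLDA family Phlda1 was at -0.77 ± 0.15, Phlda2 at 0.55 ± 1.11, with replicate 3 of the opposite sign, and Phlda3 at 0.06 ± 0.37 (SD, n = 3). Of 12 metallocarboxypeptidases, the family of Cpm, none was consistent, and limma gave 1 in Cy5 at an unadjusted p under 0.05.

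Markers of other cells were read beside these values. Of 12 cardiomyocyte markers 0 were consistent in Cy5 and 2 in Cy3, Myl2 and Tnnt2. Cy5 and Cy3 of both probes were saturated on each of the 3 arrays, so no ratio is given for them, and 8 of the 12 had a saturated spot on at least 1 array. Of 5 atrial markers tested of 6, Nppa was consistent in Cy3 and the others had means between 0.34 and 0.88. Tbx5, a cardiac transcription factor, stood at 0.34 ± 0.19 (SD, n = 3). For Sln and Myl7 replicate 2 stood apart, where Sln, which encodes sarcolipin, had ratios of 0.08, 3.69 and -1.15 and Myl7, the atrial myosin light chain, of -0.21, 3.41 and -1.27. The summed signal of the 3 red blood cell markers tested of 6 was 107886 to 183013 in Cy5 and 68148 to 109733 in Cy3. Their median ratios were 0.63, 0.96 and -0.03, so they were brighter in Cy5 on replicates 1 and 2 and not on replicate 3. Hba-a1, the brightest of them, was saturated in Cy5 on 2 arrays, and the median of replicate 2 is its ratio. The size of these sums and of that median is therefore uncertain. No skeletal muscle, fat, fibroblast or endothelial marker was consistent. The median ratio of the 5 fat markers tested of 7 was 1.52, -0.28 and -1.13, with opposite signs on replicates 1 and 3. In whole hearts fewer cells of a type and less RNA per cell cannot be told apart, and the part of these markers in the members' ratios was not tested.

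The probes with ratios most like those of Lrrc10 were looked for over all tested probes by Euclidean distance between their 3 log2 ratios. The 5 with the smallest values were those of 4930564B18Rik (now Erich6b, chromosome 14), E130016E03Rik (chromosome 4), the member E030045M14Rik, Csnk1g1, a casein kinase (chromosome 9), and Cyp2c40, a cytochrome P450 (chromosome 19). Cy3 was not well above background on any array for these 5 probes, so neither their distances nor their order can be read. As bounds, Cy5 was at least 6.56-fold brighter for 4930564B18Rik and at least 2.29-fold to 2.71-fold brighter for the others.

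The search was repeated on probes whose Cy5 and Cy3 were both well above background on each array, a filter added after the values had been seen. The smallest distance was then 5.56, for Gm129 (now Ciart, chromosome 3), on the scale on which the Lrrc10 ratios themselves were 4.91 to 5.65, so no such probe was close. The ratios of Gm129, 4.29, 4.23 and 0.29, were low on replicate 3, unlike those of Lrrc10.

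**Figure D5:**
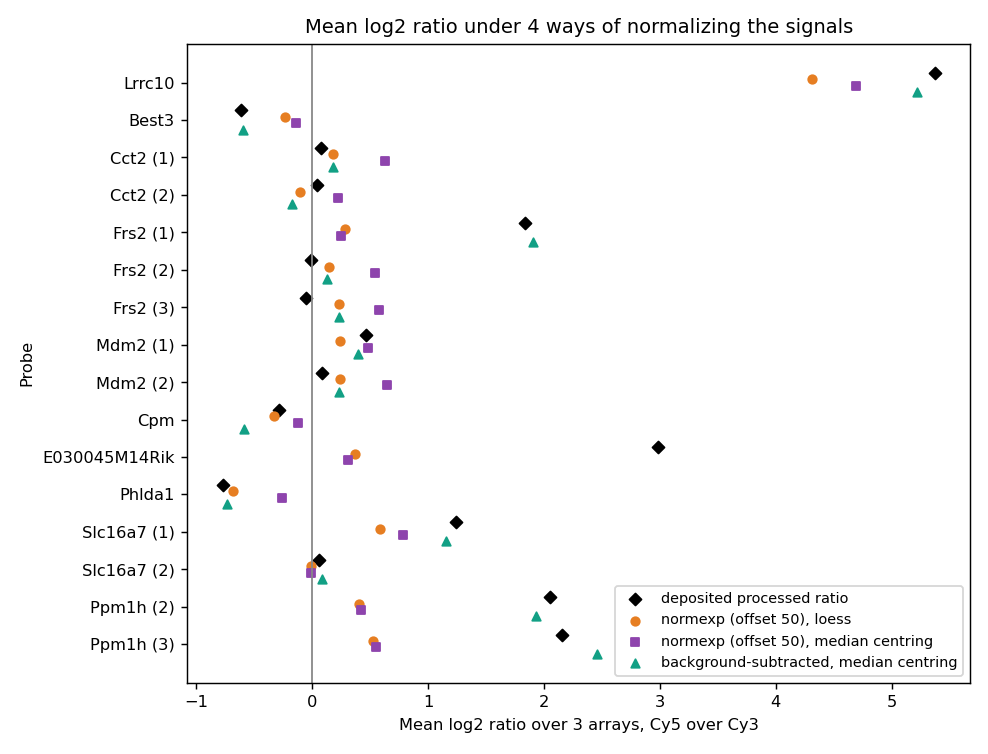
Mean log2 ratio (Cy5 over Cy3, 3 arrays) of the 16 tested probes from the deposited processed signals and from 3 other normalizations of the same spots. Lrrc10 stays between 4.31 and 5.37, while Ppm1h falls from 2.06 and 2.16 to 0.41 and 0.53 with normexp and loess. The points of E030045M14Rik rest on a Cy3 signal not well above background.

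The choice of normalization moved dim and bright members alike. Over the 4 in the plot the Lrrc10 ratio stayed between 4.31 and 5.37, and leaving out 1 array gave 5.23 to 5.60. The dim Ppm1h (2), Ppm1h (3) and Frs2 (1) probes lost most of their ratio with normexp and kept their sign. With normexp and median centring, the brighter Phlda1 probe went from -0.77 to -0.26 and Frs2 (2) from -0.01 to 0.54. After normexp and loess these probes were at -0.68 and 0.15. The sign was kept in every setting that gave a value for 11 of the 16 probes. It turned in at least 1 setting for the others, which were Cct2 (2), Frs2 (2), Frs2 (3), Mdm2 (2) and Slc16a7 (2).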

How the data were processed

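Agilent 4 x 44K arrays compared heart RNA in Cy5 and Cy3. The authors deposited Feature Extraction 9.1.3.1 output. Its mean and background intensity columns are not normalized. The processed intensity, as deposited, is background-subtracted, detrended and dye-normalized (linear and lowess), with surrogate values at background. The deposited log10 ratio is Cy5 over Cy3 of these signals, and the deposited p-value is that of 1 spot on 1 array.

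Ratios were converted to log2, outlier spots dropped and spots averaged per probe. Saturated spots were kept. Probes with a geometric mean processed signal of at least 20 were tested against 0 with limma 3.58.1 in R 4.3.3 (eBayes with intensity trend, two-sided, Benjamini-Hochberg). Consistent probes, a variant of the study's selection, were at least 1.2-fold one way with every array p below 0.05. The methods name a t-test as their general test, without tying it to this selection, and it was run as an alternative. The bound uses the loess-normalized processed signals after Aquantile. The scripts were tested on simulated data. With each probe's observed SD, limma recovered 0% of simulated log2 changes of 1, 26% of 2, 68% of 4 and 82% of 5. A limma count of 0 in any set above therefore does not show that such changes are absent.

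Names came from the RefSeq table (GRCm38.p6) by accession for 24844 probes, symbol for 6045 and synonym for 1810, and 8475 had no match. The array files name no genome build, so distance and gene order came from that table. Members and gene lists were chosen with earlier results of these data known. Named genes were the members, interval genes called or consistent, up to 3 called genes per family list and the 5 probes nearest Lrrc10. Other names (Tbc1d15, Yeats4, Rab3ip, Kcnmb4, Gm129, Trp53 and the extremes or relatives quoted in lists and markers) were chosen after their values were seen. Embryonic arrays of the study were not used here. The number of arrays limits the precision.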

Additional observations from a re-analysis of the deposited data

How the results depend on the processing

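No paired analysis was possible because the arrays form 1 group and each ratio already pairs its channels. The causes of the changes below were not tested unless stated. For limma over all probes, called probes in Cy5 were 2, and 1 with normexp and loess, without dye normalization, with a signal minimum of 50 or with probes well above background only. They were 0 with no signal minimum and 0 for the methods' t-test after Benjamini-Hochberg, which gave 594 at an unadjusted p under 0.05 in Cy5 and 650 in Cy3. Leaving out 1 array gave 0 to 409 in Cy5 and 0 to 134 in Cy3, both highest without replicate 3, where 2 arrays decide. Consistent probes fell from 120 to 61 in Cy5 and from 151 to 73 in Cy3 with normexp and loess. They fell to 9 in Cy3 with normexp and median centring, where the median of all probes was at 0.16. Under the other normalizations, here and below, the array p was still that of the deposited ratio. Only the fold part of the rule was recomputed there. With 2 arrays to pass instead of 3, leaving out 1 array gave 573 to 1167 in Cy5 and 440 to 666 in Cy3.

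Within 10 Mb, consistent probes in Cy5 went from 5 to 3 with normexp and median centring or probes well above background only, and to 2 in windows of 5 and 1 Mb. In Cy3 they went from 2 to 1 with normexp and loess, to 0 with normexp and median centring, and to 1 in both smaller windows. Consistent member probes numbered 4 in Cy5 and 1 in Cy3 with normexp and loess, 3 and 0 with normexp and median centring, and 3 and 2 with probes well above background only. Leaving out 1 array gave 7 to 8 in Cy5 and 2 to 4 in Cy3 within 10 Mb. Limma's 1 probe there, Lrrc10, became 0 with no signal minimum, and 0 to 6 in Cy5 and 0 to 1 in Cy3 without 1 array. Of the 170 recomputed member ratios, 144 moved by less than 1 SD between arrays, 26 by more and 0 reversed a consistent probe. All 26 came from the 3 other normalizations. The signal filters, the deposited values and the kept outlier spots returned the same member ratios. A mean that leaves out 1 of 3 arrays cannot move by 1 SD. The 144 are therefore no measure of stability. Exchanging the labels would turn every sign.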
